A study of Mus musculus with 8 samples.

Results

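The regions described here are open chromatin at the ends of long non-coding RNA (lncRNA) genes, at sites away from protein-coding genes, in mouse induced pluripotent stem cells. They were chosen from the deposited atlas, a single list that covers the series, by position alone. A region was included if it lay within 1 kb of an outer limit of an lncRNA gene, touched no protein-coding gene and lay more than 10 kb from every protein-coding gene. Of the 76872 atlas regions, 1497 met this rule (1.95%). They make up 5.96% of the 25102 regions that lie more than 10 kb from coding genes, and they sit at the ends of 1320 of 12727 annotated lncRNA genes.

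The cells were a clonal line carrying the FUCCI2 cell cycle reporters, grown over irradiated feeders in medium with FBS, LIF and the 2i pair of kinase inhibitors. Open DNA was tagged with the Tn5 transposase (ATAC-seq) from 50000 cells per library, in 8 libraries that form 4 groups of 2. These were cells arrested in mitosis by nocodazole (200 ng/ml for 6 hours) and shaken off, cells 1 hour and 3 hours after release from that arrest, and untreated asynchronous cells. Whether the libraries of a group came from separate cultures is not given in the labels. The atlas carries no value per library, so no region could be tied to a group, no comparison of groups was possible and the depth behind each region is unknown. As a check of the labelled cell type, 7 of 8 pluripotency genes (all but Esrrb) and 1 of 8 feeder fibroblast genes (Col1a1) had a region within 1 kb of a gene end, where the share over all protein-coding genes was 62.0%. A list of 8 is too short to tell the pluripotency count from that share, and no test was run.

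An lncRNA is transcribed and often spliced like a messenger RNA but is not translated. Some act as RNA in the nucleus or cytoplasm, some serve mainly as precursors of small RNAs, and for others the act of transcription or the DNA beneath it is what matters. Many lncRNA genes share their promoter or their span with a coding gene, where open chromatin cannot be credited to the lncRNA. The distance rule keeps regions away from annotated coding genes, although the other parts of some of these lncRNA genes lie near or over one. In pluripotent cells such RNAs include the Platr genes (pluripotency-associated transcripts), Tunar and Eprn.

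The DNA at the starts of these genes took very different forms, and 9 examples are shown because the results below turn on this contrast. Each is the RefSeq promoter window of GRCm38.p6, from 250 bases before the gene start to 50 bases after it, on the strand of the gene and written 5′ to 3′. Every CpG dinucleotide is in capitals. The first 3 are from genes of general use in many cells or of microRNA production, the next is from the nuclear lncRNA Firre, and the last 5 are from lncRNAs of the pluripotency list. They were picked to span the range of CpG content and do not stand for their lists. All 9 windows were touched by a region of the set.

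Snhg5: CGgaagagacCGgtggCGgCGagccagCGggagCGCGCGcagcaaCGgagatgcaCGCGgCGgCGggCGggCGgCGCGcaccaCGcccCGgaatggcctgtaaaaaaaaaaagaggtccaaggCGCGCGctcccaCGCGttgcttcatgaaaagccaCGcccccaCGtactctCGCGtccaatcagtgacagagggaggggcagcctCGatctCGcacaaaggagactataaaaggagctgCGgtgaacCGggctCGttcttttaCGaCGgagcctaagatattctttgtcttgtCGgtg

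Mirc35hg: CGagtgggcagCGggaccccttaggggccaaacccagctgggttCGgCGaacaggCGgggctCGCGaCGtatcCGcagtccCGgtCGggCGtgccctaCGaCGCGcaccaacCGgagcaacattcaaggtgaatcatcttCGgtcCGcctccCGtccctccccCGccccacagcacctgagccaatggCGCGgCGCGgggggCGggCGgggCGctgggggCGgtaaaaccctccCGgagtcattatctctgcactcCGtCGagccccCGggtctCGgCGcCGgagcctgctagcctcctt

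Dancr: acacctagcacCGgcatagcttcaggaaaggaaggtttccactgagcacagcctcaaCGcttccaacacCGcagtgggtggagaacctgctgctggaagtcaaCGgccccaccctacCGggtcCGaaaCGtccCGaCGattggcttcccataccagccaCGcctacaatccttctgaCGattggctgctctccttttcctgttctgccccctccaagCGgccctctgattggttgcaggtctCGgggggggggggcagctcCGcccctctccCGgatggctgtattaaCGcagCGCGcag

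Firre: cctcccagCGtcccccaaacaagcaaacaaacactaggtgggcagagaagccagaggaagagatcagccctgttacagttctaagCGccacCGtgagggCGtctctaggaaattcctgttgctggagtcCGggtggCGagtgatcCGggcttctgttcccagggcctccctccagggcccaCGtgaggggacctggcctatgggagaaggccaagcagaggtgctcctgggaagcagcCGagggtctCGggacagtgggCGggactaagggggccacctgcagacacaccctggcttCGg

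Tunar: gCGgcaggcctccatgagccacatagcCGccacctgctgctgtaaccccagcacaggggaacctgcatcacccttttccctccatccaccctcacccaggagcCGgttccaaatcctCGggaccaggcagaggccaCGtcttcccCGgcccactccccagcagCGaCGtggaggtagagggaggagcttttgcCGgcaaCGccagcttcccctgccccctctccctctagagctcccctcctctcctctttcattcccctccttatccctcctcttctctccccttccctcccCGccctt

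Platr21: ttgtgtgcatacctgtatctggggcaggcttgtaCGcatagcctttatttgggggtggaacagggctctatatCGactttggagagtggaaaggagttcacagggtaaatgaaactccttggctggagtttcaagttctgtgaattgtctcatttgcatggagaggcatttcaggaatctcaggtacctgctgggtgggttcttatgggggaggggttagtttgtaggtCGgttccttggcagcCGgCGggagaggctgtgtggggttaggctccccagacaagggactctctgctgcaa

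Eprn: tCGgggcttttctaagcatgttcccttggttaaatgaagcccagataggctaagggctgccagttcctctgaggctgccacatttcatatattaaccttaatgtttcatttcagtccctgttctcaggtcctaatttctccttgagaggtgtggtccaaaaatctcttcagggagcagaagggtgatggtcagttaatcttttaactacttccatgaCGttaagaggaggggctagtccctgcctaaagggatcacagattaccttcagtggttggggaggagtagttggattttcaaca

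Platr3: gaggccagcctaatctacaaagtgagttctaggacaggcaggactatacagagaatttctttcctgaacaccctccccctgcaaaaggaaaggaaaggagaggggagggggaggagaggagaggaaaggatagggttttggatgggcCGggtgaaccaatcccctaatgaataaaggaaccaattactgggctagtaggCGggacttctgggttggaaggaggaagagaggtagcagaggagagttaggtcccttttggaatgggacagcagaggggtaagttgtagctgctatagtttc

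Platr10: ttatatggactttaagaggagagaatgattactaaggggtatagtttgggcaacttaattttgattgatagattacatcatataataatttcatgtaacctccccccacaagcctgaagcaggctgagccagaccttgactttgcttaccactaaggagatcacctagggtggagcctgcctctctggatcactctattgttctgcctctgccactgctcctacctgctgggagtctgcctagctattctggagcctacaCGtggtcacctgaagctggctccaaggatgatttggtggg

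Snhg5 (chr9:88522848-88523147, minus strand) held 36 CpGs and Mirc35hg (chr6:30174076-30174375, minus) held 35. Dancr (chr5:74092810-74093109, plus) held 18, Firre (chrX:50635272-50635571, minus) 12 and Tunar (chr12:105336344-105336643, plus) 11. The windows with the fewest were also from the pluripotency list, with 5 in Platr21 (chrX:139357689-139357988, minus), 2 in Eprn (chr13:73347335-73347634, minus), 2 in Platr3 (chr2:135646273-135646572, plus) and 1 in Platr10 (chr3:75655682-75655981, minus). Platr21 held the octamer ATGCAAAT on its lower strand, the sequence read by POU factors such as Oct4.

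Accessibility lay at the starts of these genes and much less at their far ends. Direction was taken from the RefSeq promoter table, which covers 9533 of the 12727 lncRNA genes. Of the 1497 regions, 749 lay at a start alone, 350 at a far end alone and 59 within reach of both a start and a far end. A further 322 lay at ends of unknown direction, and the remaining ones combined an unknown end with a known one. Among regions at a start alone or a far end alone, 68.2% were at a start (95% Wilson interval 65.3 to 70.8%). Of the start regions, 42.6% (319) covered the start position itself, 25.9% lay outside the gene and 31.5% inside it. Of the far-end regions, 10.3% (36) covered the limit, 44.0% lay outside and 45.7% inside. Regions that cover a position lie around it by selection, so their midpoints do not separate starts from far ends. The 346 regions that covered a start had a median midpoint at -10.25 bp from it (quartiles -83.4 and 81.9 bp). The 39 that covered a far limit had one at -34 bp (-85.5 and 84 bp), where negative values lie upstream along the gene.

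The same contrast held when counted over genes. An lncRNA gene was taken as isolated if its span, widened by 1 kb on each side, lay more than 10 kb from every coding gene, which 5624 genes did. Of these, 1084 (19.3%) had a region within 1 kb of an end. Among the 4305 with a known direction, 635 (14.8%, interval 13.7 to 15.8%) had one at the start and 318 (7.39%, interval 6.64 to 8.21%) at the far end. Regions were found at the start alone in 530 of these genes, at the far end alone in 213 and at both ends in 105. In windows of 250 bp, 8.71% of starts were touched just upstream and 8.60% just downstream of the start position. The share declined to 2.09% at 750 to 1000 bp upstream. Beyond 2 kb on either side of the start the windows ranged from 1.35 to 2.14%. Far ends had no such peak, with 1.84% just before the limit and 1.70% just after it, inside the 1.70 to 2.30% seen beyond 2 kb. The windows farther into the gene from the far end, at 1 to 2 kb, reached 2.53%.

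**Figure D1:**
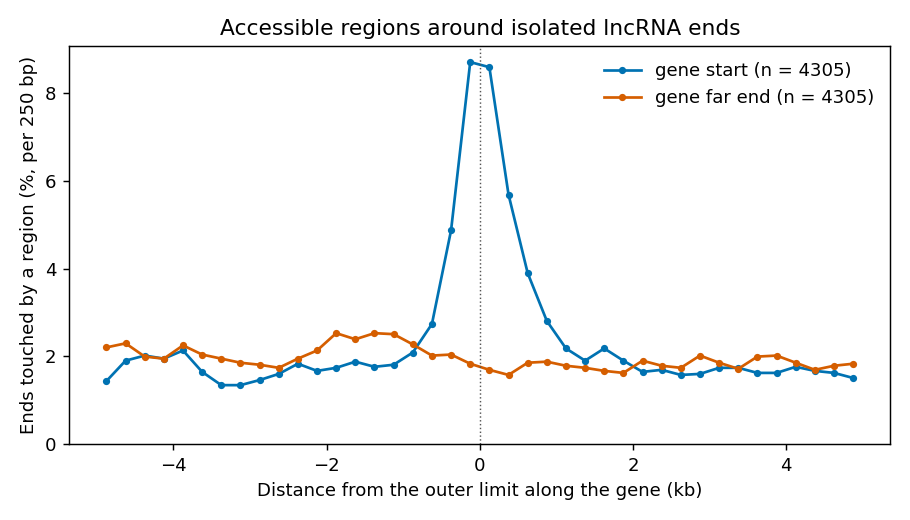
Share of the 4305 starts and 4305 far ends of isolated lncRNA genes touched by an atlas region, in 250 bp windows against distance along the gene in kb (positive values run downstream of the limit). Starts peak at 8.71% beside the limit, and far ends stay between 1.58 and 2.53% within 2 kb.

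Outward from isolated genes the density of region midpoints was 50.05 per Mb in the first 1 kb (exact Poisson interval 45.98 to 54.4, counting error only). It was 29.3 per Mb from 1 to 2 kb, 31.2 from 2 to 5 kb, 28.2 from 5 to 10 kb, 32.6 from 10 to 20 kb and 32.0 from 20 to 50 kb. Of these 6 distances, the first 1 kb had the highest density, and the intervals of the other 5 lay below its interval. The distances beyond 10 kb can reach coding genes, and all can hold ends of other lncRNA genes, as neither was left out. Counted instead as regions that touch the 1 kb on either side of an end, inside and outside the gene, the density was 58.2 per Mb (55 to 61.5).

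Ends of isolated lncRNA genes were accessible more often than those of isolated pseudogenes without annotated transcription, and the interval of transcribed ones included the lncRNA share. Isolated pseudogenes had a region at either end in 6.50% of 5801 cases and transcribed pseudogenes in 21.8% of 238 (interval 17.1 to 27.5%). Isolated tRNA genes, transcribed by RNA polymerase III, reached 58.1% of 198. The share was 11.6% of 285 isolated microRNA genes, 6.74% of 727 small nucleolar RNA genes and 6.07% of 478 small nuclear RNA genes. In short genes the windows at both ends overlap, so these classes differ in the length of DNA searched. The lncRNA genes nearer to coding genes had a region at the start in 36.8% of 5228 cases, and protein-coding genes in 59.0% of 17492. At the far end the coding genes had 11.7%. Isolated lncRNA genes with a curated RefSeq transcript had a region at the start in 20.6% of 1084 cases (interval 18.3 to 23.1%), and those with computer-predicted transcripts alone in 12.8% of 3221 (11.7 to 14.0%). By gene length, the start share was 17.2% in isolated genes up to the lower length quartile (4078 bp) and 11.7% in those above the upper one (22403 bp), and the far-end share 11.5% and 3.996%. These shares describe 1 atlas, neighbouring genes can share a region, and the differences between gene classes were not tested.

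**Figure D2:**
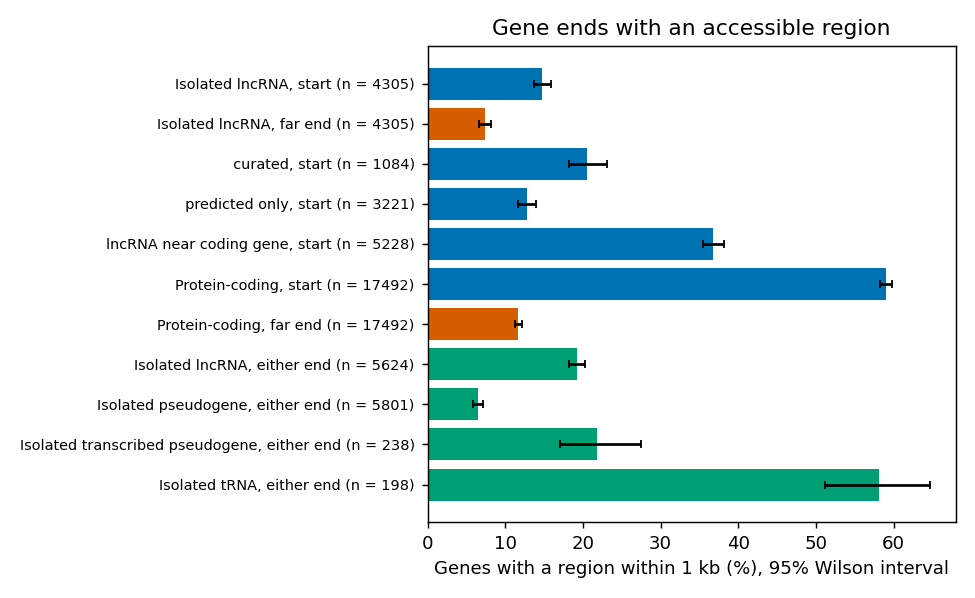
Share of genes in percent with an atlas region within 1 kb of the start (blue), the far end (orange) or either end (green), with 95% Wilson intervals and the number of genes. Starts of isolated lncRNA genes (14.8%) lie above their far ends (7.39%) and below starts of coding genes (59.0%).

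The regions of the set were a little wider than other regions far from coding genes. The median width over the 1497 was 294 bp (quartiles 166 and 479 bp, range 73 to 2074 bp), with an exact binomial interval of the median from 278 to 308 bp. The 23605 other regions more than 10 kb from coding genes had a median of 257 bp (interval 254 to 261 bp). Over all 76872 atlas regions the median was 281 bp (279 to 283 bp), inside the interval of the set. Distance to an end ran from the nearest base, which favours wider regions. With the midpoint required to lie within the distance, the median of the set was 283 bp. Inside the set, regions at a start alone had a median of 307 bp (289 to 329 bp) and those at a far end alone 242.5 bp (211 to 269 bp). Regions that cover a given position are wider by selection, so they were compared with each other. Those that covered an lncRNA start had a median of 452 bp (413 to 492 bp), and the 39 that covered a far limit and no start 372 bp (345 to 574 bp), so that these intervals overlapped. The 7456 atlas regions that covered the start of a coding gene had a median of 700.5 bp (690 to 710 bp), and the 95 that covered a coding far limit and no start 427 bp (361 to 494 bp). A width of at least 1000 bp was found in 39 regions of the set (2.61%), 28 of them at a start alone and 3 at a far end alone. The smallest width in the atlas, 73 bp, occurred in 42 (2.81%), against 4.34% of the other regions far from coding genes.

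**Figure D3:**
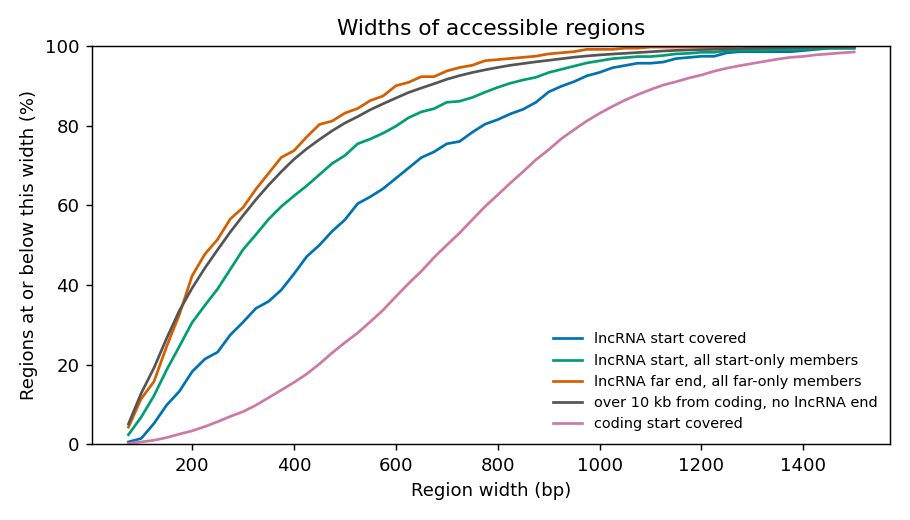
Cumulative share of regions in percent against width in bp, for regions of the set at starts and far ends, other regions far from coding genes, and regions covering coding starts. Regions covering an lncRNA start have a median of 452 bp and those covering a coding start 700.5 bp. Both are wider by selection than regions that need not cover a position, such as far regions at no lncRNA end (257 bp).

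Accessible starts held more CpGs than the others. The outer start had a promoter window in 4188 isolated lncRNA genes, and a region touched 382 of these windows. The touched windows had a median of 6 CpGs (quartiles 4 and 11) and a GC content of 51.7%, and the 3806 untouched windows had 3 CpGs (1 and 5) and 46% GC. A window was counted as CpG-rich at a GC content of at least 50% and a CpG count of at least 0.6 times that expected from its C and G content. By this measure 14.1% of touched windows (interval 11.0 to 17.99%) and 1.45% of untouched ones (1.11 to 1.88%) were CpG-rich. Among touched coding promoters the share was 72.4% of 5158. Read the other way, 54 of 109 CpG-rich lncRNA starts were touched (49.5%, interval 40.3 to 58.8%) and 328 of 4079 CpG-poor ones (8.04%). For coding genes the shares were 90.5% of 4125 CpG-rich and 22.0% of 6458 CpG-poor starts. These windows cover only part of the 17492 coding genes of known direction. Most accessible lncRNA starts (328 of 382) were thus CpG-poor. Regions at CpG-rich lncRNA starts had a median width of 637 bp (51 regions) and those at CpG-poor ones 358 bp (323 regions).

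**Figure D4:**
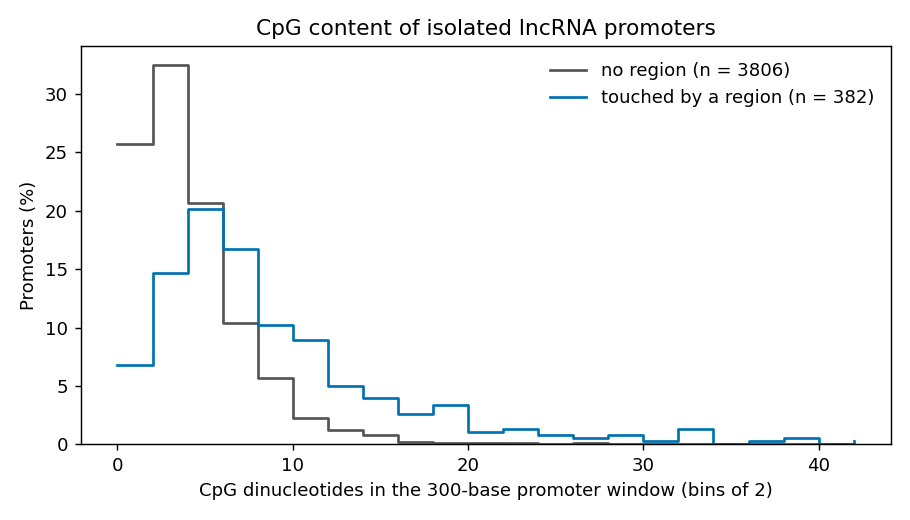
Distribution of the number of CpG dinucleotides in the 300-base promoter windows of isolated lncRNA genes, in percent of windows, for 382 windows touched by a region and 3806 untouched. Touched windows have a median of 6 CpGs and a longer upper tail, and untouched windows a median of 3.

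The short sequences of 10 motifs were searched on both strands of the same windows, and matches of different motifs were allowed to overlap. Among CpG-poor lncRNA starts the octamer ATGCAAAT was present in 5.18% of touched windows (17 of 328, interval 3.26 to 8.14%) and 1.87% of untouched ones (70 of 3751, 1.48 to 2.35%). Over all 19827 promoters, coding ones included, the octamer share was 1.96%. The core CNAGNGGGC of the CTCF site, which anchors chromatin loops, was in 7.62% of touched (5.22 to 11.0%) and 2.03% of untouched CpG-poor windows, and in 6.13% of all promoters. The KLF motif GGGTGTGG was in 7.01% (4.72 to 10.3%) and 2.61%, and in 3.54% of all promoters. The ETS motif CCGGAAG was in 6.40% (4.23 to 9.59%) and 2.05%, and in 7.35% of all promoters. For these 4 motifs the intervals of touched and untouched windows did not overlap. The TATA box letters TATAAA went the other way, at 10.7% of touched (7.77 to 14.5%) and 20.2% of untouched CpG-poor windows, with 16.3% over all promoters. The intervals overlapped for the AP-1 motif TGANTCA at 11.0% and 11.1%, the SOX motif CATTGT at 17.4% and 19.2%, the YY1 motif AAGATGGC at 1.83% and 1.84%, and the ESRRB motif TCAAGGTCA at 0.305% and 0.560%. Over all promoters these were in 8.71%, 14.0%, 2.69% and 0.464%. The NRF1 motif GCGCATGCG had no match in touched CpG-poor windows, against 0.320% of untouched ones and 1.51% of all promoters. GC content differs between touched and untouched windows, and its part in these shares was not tested.

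Most isolated lncRNAs of the pluripotency list had an accessible end. Of 13 isolated genes in this list, 11 had a region at one of their ends, where the share over isolated lncRNA genes was 19.3%, and 7 of the 10 with a known direction had one at the start, against 14.8%. The 2 without were Platr6 and Platr11. Over isolated lncRNA genes with a curated RefSeq transcript the shares were higher, 25.8% at an end and 20.6% at the start. Platr10, Platr3 and Platr21 have regions in the set but lie too near coding genes to count as isolated. Platr genes were named for expression in pluripotent cells, so the list is not independent of the cell type. Tunar, which acts in pluripotency and neural differentiation, had the widest region of the list, 1014 bp at chr12:105336180-105337193, covering its start 113.4 kb from the nearest coding gene Tcl1. Platr22 had an 830 bp region on its start (chr1:136695765-136696594) and one of 259 bp upstream. Platr14 had 401 bp at chr2:104558790-104559190, covering its start. Platr21, on the X chromosome, had 601 bp on the start (chrX:139357611-139358211) and 611 bp upstream of it. Platr10 and Platr3 had 344 and 418 bp on their starts.

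Other members of the list were reached away from the start position. Lncenc1, which acts in naive pluripotency, had a region of 278 bp lying 987 bp inside its start. Platr7 had 613 bp that began 982 bp upstream of the start, and Platr26 had 363 bp ending 92 bp upstream. Platr5 and Platr30 had regions beyond their far ends, of 199 and 741 bp. The Platr30 region, at chr3:96359404-96360144, touched the U1 snRNA gene Rnu1b1. Platr4 and Platr27, of unknown direction, had regions of 459 and 411 bp covering a limit. Eprn (Ephemeron), which acts in the exit from naive pluripotency, had the most regions of any lncRNA gene in the set, 5 within 1 kb of the limits of a 2.72 kb gene. They were narrow, with widths of 179, 290, 84, 101 and 134 bp from the far end to upstream of the start, and no region covered either limit.

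**Figure D5:**
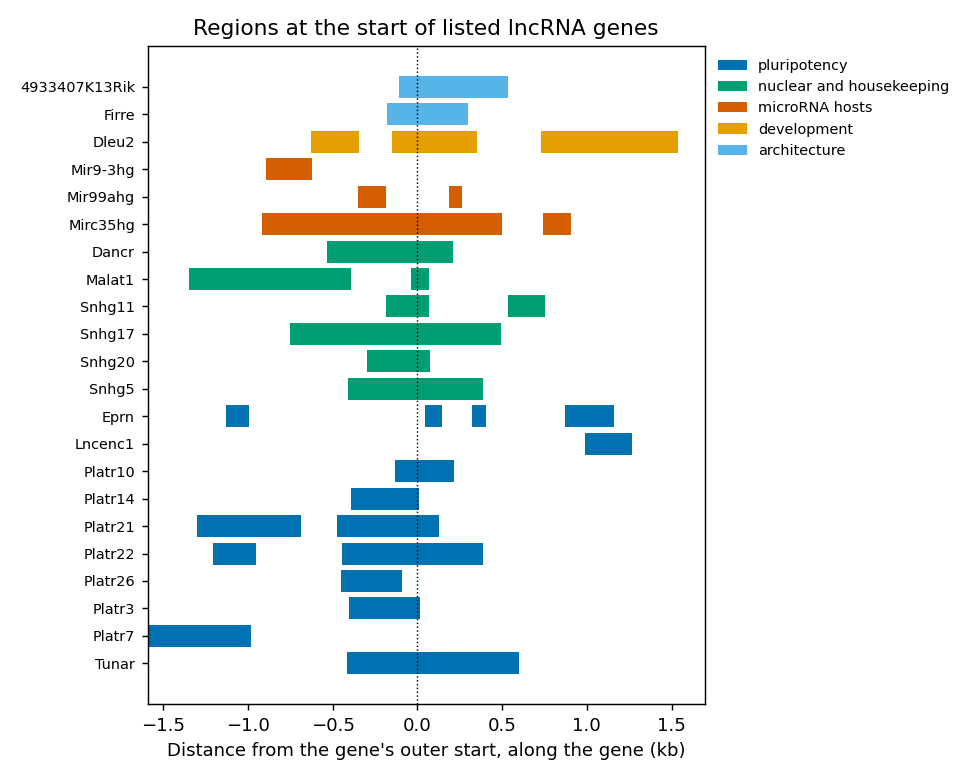
Regions of the set at the starts of listed lncRNA genes, drawn to scale as distance in kb along the gene from its outer start (dotted line), coloured by list. Tunar, Snhg17 and Mirc35hg carry the widest regions, and the regions at Eprn and Mir99ahg are narrow and do not cover the start.

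All 7 isolated genes of the nuclear and housekeeping list had a region at an end, and all 6 of known direction had one at the start. Over isolated lncRNA genes these shares were 19.3% and 14.8%, and over those with a curated transcript 25.8% and 20.6%. The list includes hosts of small nucleolar RNAs, which guide chemical modification of ribosomal RNA. Snhg17 had 1245 bp on its start at chr2:158361029-158362273, Snhg5 had 794 bp at chr9:88522514-88523307, and Snhg20 had 367 bp at chr11:117076487-117076853. Snhg11 had 256 bp on its start, 219 bp inside it and 404 bp near the far end. Dancr, which restrains differentiation of progenitor cells, had 744 bp on the start at chr5:74092525-74093268. Malat1, an abundant RNA of nuclear speckles, had only 106 bp on the annotated start (chr19:5802608-5802713), a wider region of 956 bp lying 396 bp upstream (chr19:5803068-5804023) and one of 723 bp beyond the far end. Norad, which binds Pumilio proteins, had 142 bp lying 10 bp inside its upper limit.

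Both lncRNAs of the architecture list, which lie on the X chromosome, had a region on the start. Within 1 kb of the start, 14.8% of isolated lncRNA genes had one, and 20.6% of those with a curated transcript. Firre, whose locus takes part in contacts of the inactive X and of other chromosomes, had 480 bp at chrX:50635022-50635501. The gene 4933407K13Rik, at the Dxz4 boundary, had 643 bp at chrX:75764164-75764806. Of the X inactivation list, Xist had no region at its start and 85 bp lying 147 bp beyond its far end (chrX:103460142-103460226), inside the antisense gene Tsix. Jpx had none at either end. Among imprinted genes, which are read from 1 parental copy, Mirg had 411 bp lying 304 bp beyond its far end, and H19 and Ipw had none. The X chromosome as a whole gave 36 regions of the set, or 2.92% of its regions far from coding genes. Over the 19 autosomes that share ran from 4.34% on chromosome 3 to 8.22% on chromosome 19. The share takes no account of the number of annotated lncRNA genes. There were 289 on the X chromosome, and from 339 (chromosome 19) to 951 (chromosome 2) on the autosomes.

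Hosts of microRNAs were mixed. Of 9 isolated host genes in the list 3 had a region within reach. The share was 19.3% over isolated lncRNA genes and 25.8% over those with a curated transcript. Of the 7 isolated hosts with a known direction, 2 had a region at the start, against 14.8% and 20.6%. Mirc35hg, which lies 5182 bp from Nrf1 and is not among the 9, is the precursor of miR-183, miR-96 and miR-182. It had 1418 bp on its start (chr6:30173627-30175044) and 165 bp inside it. Mir9-3hg had 274 bp upstream of the start and 1026 bp beyond the far end. Mir99ahg had 165 and 73 bp on either side of its start, and Mir124a-1hg had 354 bp beyond a limit. The hosts Mir17hg, Mir100hg, Mir124-2hg, Mir1a-1hg, Mir205hg and Mir217hg had none. Over the whole set, 15 of the 1320 lncRNA genes (1.14%) held a microRNA hairpin in their span. The share over all lncRNA genes was not computed, so this count shows neither an excess nor a lack.

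The microRNAs of Mirc35hg, and a group of 3 in other genes of the set that share 1 seed, are shown with bases 2 to 8, the seed that pairs with targets, in capitals. The sequences are from RefSeq, GRCm38.p6. The shared seed is AGCAGCA, in genes on 3 chromosomes.

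miR-183-5p: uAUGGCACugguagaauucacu

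miR-96-5p: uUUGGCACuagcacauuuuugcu

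miR-182-5p: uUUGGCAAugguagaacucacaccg

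miR-16-5p: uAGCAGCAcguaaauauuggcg

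miR-195b: uAGCAGCAcagaaauaguagaa

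miR-322-5p: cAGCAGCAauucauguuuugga

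The last 3 lie in Dleu2, Gm33458 and C430049B03Rik. Dleu2, a gene of the miR-16 family that limits cell cycle entry, had 3 regions at its start, of 808 bp inside it, 502 bp on it (chr14:61682025-61682526) and 278 bp upstream. Gm33458 runs on the opposite strand to its microRNA, and the widest region of the whole set lay inside its start (2074 bp, chr2:56798673-56800746), 306.1 kb from Nr4a2.

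In the developmental list, 4 of 10 isolated genes had a region within 1 kb of a limit. The share was 19.3% over isolated lncRNA genes and 25.8% over those with a curated transcript. Of the 6 isolated genes of the list with a known direction, 0 had a region at the start, against 14.8% and 20.6%. Pvt1, next to Myc, had 136 bp covering its lower limit and 164 bp lying 206 bp outside. Trp53cor1 (lincRNA-p21), next to Cdkn1a, had 270 bp on its upper limit. Miat, a neural and heart lncRNA, had 77 bp near its far end. Bvht (Braveheart), which acts in heart development, had 73 and 80 bp near a limit. Rmst, Lncpint and Halr1 were among those without. Genes with a given name and a region within 1 kb of each limit numbered 8: Malat1, Snhg11, Eprn, Mir9-3hg, AI847159, BC065403, Bloodlinc and Cistr. Cistr is short, and 1 region reached both its limits. Both regions of Bloodlinc lay inside the gene, each within reach of both limits. In all, 130 genes had both ends reached, in 39 cases by 1 region.

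The 10 widest regions ranged from 1264 to 2074 bp, and all 10 lay at a start or at an end of unknown direction. After Gm33458 came 1700019L22Rik (1687 bp), LOC115490388 (1557 bp), Gm39054 (1543 bp), A930011G23Rik (1464 bp), a region shared by Gm29418 and Gm4718 (1448 bp), Mirc35hg, A230028O05Rik (1381 bp), Gm33249 (1329 bp) and Gm16897 (1264 bp). The Gm39054 region, at chr7:98814875-98816417, also held the tRNA genes n-TPtgg8 and n-TPagg7. In all, 14 regions of the set (0.935%) touched a tRNA gene, against 0.343% of the other regions far from coding genes. The region shared by Gm29418 and Gm4718 covered starts that run in opposite directions 10 bp apart, and 28 regions in all lay at starts on both strands. After Eprn, the genes with the most regions were Gm35607 and Gm40467 with 4 each. Of the 24 genes with 3, those with the largest summed width were Malat1 (1785 bp), Gm51701 (1751 bp), Dleu2 (1588 bp), Gm34554 (1437 bp), 1110002J07Rik (1370 bp), Gm33272 (1245 bp) and Gm27204 (1138 bp).

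The regions lay at a median of 39.9 kb from the nearest coding gene (quartiles 20.6 and 85.6 kb), nearer than the 60.0 kb of the other regions far from coding genes (24.4 and 181.4 kb). More than 50 kb away were 622 of them (41.5%), and more than 500 kb away 22. The farthest was at 1700019L22Rik, 1392 kb from Tenm3 (chr8:50915313-50916999). Next came 1190028D05Rik with 701 bp on its start at 1155 kb, C330004P14Rik with 759 bp on its start at 1020 kb, Gm35822 with 359 bp on its far limit at 930.1 kb and Gm30113 with 911 bp beyond its far end at 816.7 kb. The promoter window of C330004P14Rik held no CpG. At the edges of the rule, the last regions inside 1 kb were at 998 bp (Eprn) and 997 bp (Gm36686), and the first outside at 1001 bp (Gm40491) and 1008 bp (Gm51621). At the 10 kb limit the nearest inside were 10036 bp from Tcof1 and 10044 bp from Dnajb12, and the nearest outside 9937 bp from Fnbp1l and 9906 bp from Etnk1.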

How the data were processed

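The authors deposited 1 list of accessible regions for the 8 libraries, as chromosome, start and end in base pairs, with no count or score. Per the submitters' processing notes, the tools were MACS2 (2.1.1), SAMtools, Picard, Bowtie2, cutadapt and bedtools, with no role given, and the build was mm10. Parameters, Tn5 shift and how libraries were merged are not stated, and a region open in 1 library cannot be told from one open in all. The planned tests between groups were therefore not made. The labels call the molecule total RNA, against the ATAC-seq protocol that was followed here.

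Gene spans (49943 genes, 21887 protein-coding), gene direction and promoter sequences came from RefSeq tables of GRCm38.p6. Intervals are 1-based, distances run from the nearest base of a region, and lncRNA genes absent from the promoter table have no direction here. Shares carry 95% Wilson intervals, which cover counting error only. Regions and genes are not replicates, so no test was run. Interval code was tested on simulated data against a direct count. Analyses used Python 3.11.15, pandas 2.3.3 and scipy 1.17.1.

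The regions, gene lists and motifs were chosen with earlier results of these data known. Named genes were those of the lists, the 10 widest regions, the 10 genes with the most regions (ties by summed width), the 5 regions farthest from coding genes, named genes with both ends reached, and the regions at each threshold. Genes holding microRNAs or tRNAs were named after their values were seen.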

Additional observations from a re-analysis of the deposited data

How the results depend on the processing

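No paired analysis was possible because libraries have no values of their own in these data, which also leaves no replicate to omit. Of 48 alternative values for 5 results, 24 stayed within 1.5 times the reported count or within the counting interval of the reported value. With ends of 500 bp and 2 kb, the share of the atlas was 1.38 and 2.84% and the share of isolated lncRNA genes with a region 14.97 and 25.9%, while the density of regions touching either side of their ends was 81.4 and 44.25 per Mb, against 58.2 for 1 kb. The median width with 500 bp was 320.5 bp. Keeping 5 kb from coding genes gave 2.33% of the atlas and 20.4% of genes, and keeping 50 kb gave 622 regions, 0.809% of the atlas, 15.2% of genes and 44.0 regions per Mb. With regions of at least 150 bp alone, the median width was 355.5 bp, the gene share 16.1% and the density 46.1 per Mb. Without lncRNA genes overlapping other gene types, the atlas share was 1.69%. With midpoints, it was 1.785%, the gene share 18.1% and the density 53.6 per Mb. Autosomes alone moved no value. Chosen after seeing the data, curated lncRNA genes alone gave 492 regions, 0.64% of the atlas, a median of 325.5 bp and 25.8% of genes, and leaving out windows of 100 kb with 20 or more regions moved none of the values computed; the density was computed for neither. The windows and filters set these counts by construction. The cause of other shifts was not tested.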
